A study of Mus musculus with 2 samples.

Results

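Histone genes were described in 2 single-cell libraries of mouse leukemia cells. Members were all genes whose symbol starts with Hist1h, Hist2h, Hist3h, Hist4h, H2af, H3f3 or H1f and that held at least 20 UMIs over both deposited matrices, a UMI being 1 captured transcript molecule. This gave 69 of 31053 genes. Of these, 60 carry a replication-dependent symbol (Hist1h, Hist2h, Hist3h or Hist4h) and 9 a replacement symbol (H2af, H3f3 or H1f). A further 14 symbols matched but lay below the minimum, 5 of them with no UMI at all. Just inside the minimum were Hist1h2ah with 23 UMIs and Hist1h2ao with 25, and just outside were Hist1h3h with 13 and Hist2h2aa2 with 11.

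The leukemia cells carried AE9a, a truncated AML1-ETO fusion that drives acute myeloid leukemia in mice, with GFP, with floxed Usp18 and with UBCER-Cre, a recombinase from a ubiquitin promoter that tamoxifen switches on. They had been transplanted into recipient mice, which received oil or tamoxifen once they were sick. Spleen cells positive for GFP and c-Kit and negative for lineage markers were sorted 3 days after the first injection, and each group is a pool of 3 mice. Both groups thus share AE9a, GFP, Cre and transplantation and differ in the injection. The labels disagree on whether both floxed alleles (Usp18f/f) or 1 of them (Usp18+/f) were to be deleted, so the groups are named by injection here. Each pool is 1 library with no map of cells to mice. No test was therefore run, and a difference here is between pools, not between treatments. Intervals are at 95% throughout and reflect counting error alone.

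Histones are the proteins around which DNA is wound. H2A, H2B, H3 and H4 form the core of the nucleosome and H1 binds the linker DNA. Replication-dependent histone genes lie in clusters, lack introns as a rule and are made in bulk during S phase. Their mRNAs typically end in a conserved stem-loop in place of a poly(A) tail, and stem-loop binding protein (Slbp) holds that stem-loop through processing, export and translation. Replacement histones come from single genes with polyadenylated mRNAs, are made throughout the cell cycle and enter chromatin also outside replication. The libraries were primed on poly(A), so a count of a replication-dependent gene covers only those transcripts that the primer could capture, and levels of the classes cannot be set against each other as amounts of mRNA.

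After filtering, 6838 cells with 66045700 UMIs remained in the oil-labelled library and 6472 cells with 60661486 UMIs in the tamoxifen-labelled library, at a median of 8623 and 8210 UMIs per cell. The kept cells of the libraries had 12 barcodes in common, and leaving those out moved no result. Usp18, the targeted gene, went against the label, with 5.62 CPM (UMIs scaled to a common library total) in the oil-labelled library and 15.4 in the tamoxifen-labelled library. Reads from the 3′ end do not show a deletion further upstream. Of the progenitor markers, Kit, on which the cells were sorted, was at 171 and 232 CPM. Gata2 was at 288 and 254 CPM and Myb at 184 and 197 CPM. Ptprc and Cd34, on which the cells were not sorted, had 9 and 3 UMIs and 5 and 15 UMIs. Erythroid markers summed to 7828 and 9163 CPM and mast cell markers to 2979 and 2751 CPM. All 5 B cell markers had UMIs but summed to only 0.212 and 0.214 CPM. T and NK cell markers were at 0.439 and 0.692 CPM with Cd3g, Trac and Klrb1c at 0, granulocyte markers at 0.0454 and 0.0495 CPM with S100a8, Ly6g, Ltf and Elane at 0, macrophage and dendritic cell markers at 7.27 and 7.34 CPM with Itgax at 0, and stromal markers at 0.227 and 0.379 CPM with Cdh5, Col1a1 and Col3a1 at 0. The part of these markers in the histone results was not tested.

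The stem-loop was searched for first, because it separates the classes at the level of the transcript. A 16-base stem-loop with 6 base pairs was found in an annotated GENCODE transcript of 43 of 60 replication-dependent members, and in 103 of 21951 protein-coding genes (0.469%). The commonest core, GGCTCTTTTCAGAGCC, occurred in 25 genes of the H1, H2A, H2B and H3 families, and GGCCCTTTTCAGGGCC occurred in 6 genes, all of them H4. Of the 17 members without a match, 14 have annotated transcripts shorter than 750 bases, and sequence past the annotated ends was not searched. The stem-loops below belong to members on which the results turn, with the core in capitals and 5 flanking bases where the transcript has them, 5′ to 3′ on the coding strand of GRCm38 (mm10).
Hist1h1c, chr13:23739507-23739532, plus strand: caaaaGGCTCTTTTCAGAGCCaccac
Hist1h2ap, chr13:21833026-21833049, minus strand: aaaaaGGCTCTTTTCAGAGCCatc
Hist1h2ac, chr13:23683472-23683497, minus strand: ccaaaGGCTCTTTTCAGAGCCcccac
Hist1h2ae, chr13:23570663-23570688, minus strand: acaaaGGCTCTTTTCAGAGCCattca
Hist1h3d, chr13:23576239-23576264, plus strand: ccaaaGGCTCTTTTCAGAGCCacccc
Hist1h4d, chr13:23581945-23581970, plus strand: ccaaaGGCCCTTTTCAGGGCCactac
Hist1h4f, chr13:23551286-23551311, minus strand: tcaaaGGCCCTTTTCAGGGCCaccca
Hist2h2ac, chr3:96220413-96220438, minus strand: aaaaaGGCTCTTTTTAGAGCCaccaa
H2afx, chr9:44335235-44335260, plus strand: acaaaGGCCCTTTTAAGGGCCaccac
H2afx was the only replacement member with a stem-loop, followed by 822 further bases of its annotated transcript.

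Members differed in how far the annotated transcript runs past the stem-loop. In 21 replication-dependent members it ended 3 to 74 bases past it (short tail), as in Hist1h2ap at 3 bases, Hist1h4f at 33 and Hist2h2ac at 57. In 22 members it ran on for 108 to 4884 bases (long tail), as in Hist1h2ae at 151, Hist1h3d at 752, Hist1h4d at 770, Hist1h1c at 840 and Hist1h2ac at 2010. A poly(A) signal, either AATAAA or else the common variant ATTAAA, lay in the last 50 bases of 11 of the 22 long-tail members, 2 of the 21 short-tail members and 8 of the 9 replacement members, against 80.7% of protein-coding genes. The division at 100 bases was chosen after values of these data had been seen.

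The members lie mostly together. Of the 60 replication-dependent members, 48 are on chromosome 13, 9 on chromosome 3, 2 on chromosome 11 and 1 on chromosome 6. The chromosome 13 genes form 1 group of 20 members at chr13:21715763-22043676 and 1 of 28 members at chr13:23531050-23764406. RefSeq promoters of GRCm38.p6, from 250 bases before to 50 after the start, matched 54 replication-dependent members. CCAAT, on either strand, was in 46 of 54 of them and in 37.9% of all 27025 promoters of this length. It was in every matched H1, H2A, H2B and H3 promoter (5, 15, 14 and 9 genes) but in only 3 of 11 H4 promoters. TATAAA on the given strand was in 26 of 54, against 8.88% of all promoters. The octamer ATTTGCAT, on either strand, was in 6 of 15 H2A and 5 of 14 H2B promoters, in 0 of the other replication-dependent families, and in 1.75% of all promoters. Of the 7 matched replacement promoters, 5 held CCAAT, 1 held TATAAA and 1 held ATTTGCAT. No motif contains another, and a match describes the letters only.

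Promoters of 3 members with contrasting values follow, 5′ to 3′ on the coding strand, with matches of these motifs on either searched strand in capitals. Hist1h1b and Hist1h1c are linker histone genes with opposite levels across the cell cycle, and Hist1h2ac had the lowest ratio between the libraries. The Hist1h2ac window spans the 250 bases between Hist1h2ac and its divergent neighbour Hist1h2bc.
Hist1h1b, chr13:21780576-21780875, minus strand: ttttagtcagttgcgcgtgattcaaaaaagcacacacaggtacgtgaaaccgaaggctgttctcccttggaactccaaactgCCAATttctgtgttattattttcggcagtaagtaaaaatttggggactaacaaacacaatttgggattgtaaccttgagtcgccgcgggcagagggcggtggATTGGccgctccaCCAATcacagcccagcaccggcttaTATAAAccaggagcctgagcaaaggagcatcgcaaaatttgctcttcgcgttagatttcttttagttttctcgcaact
Hist1h1c, chr13:23738557-23738856, plus strand: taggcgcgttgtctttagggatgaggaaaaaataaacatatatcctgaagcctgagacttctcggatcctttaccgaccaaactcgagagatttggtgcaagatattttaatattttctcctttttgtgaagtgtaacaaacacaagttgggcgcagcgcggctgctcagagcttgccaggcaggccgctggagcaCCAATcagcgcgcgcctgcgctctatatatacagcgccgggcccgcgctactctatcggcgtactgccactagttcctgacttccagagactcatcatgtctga
Hist1h2ac, chr13:23683910-23684209, minus strand: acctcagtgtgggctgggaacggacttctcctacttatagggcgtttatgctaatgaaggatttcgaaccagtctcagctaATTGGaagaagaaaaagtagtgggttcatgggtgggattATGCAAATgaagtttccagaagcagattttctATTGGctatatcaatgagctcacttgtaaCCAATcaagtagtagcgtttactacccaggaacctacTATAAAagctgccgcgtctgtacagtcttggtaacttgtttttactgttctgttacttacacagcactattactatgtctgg

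Counts were summed over the kept cells of a library and divided by their total to give CPM. Replacement histones supplied most histone UMIs. They held 600179 UMIs in the oil-labelled library and 479491 in the tamoxifen-labelled library, 0.909% and 0.790% of all UMIs. Replication-dependent histones held 108224 and 79635 UMIs, 0.164% and 0.131% of all UMIs. The replication-dependent share of all histone UMIs was 15.3% (15.2 to 15.4) in the oil-labelled library and 14.2% (14.2 to 14.3) in the tamoxifen-labelled library. Each UMI is a transcript counted once at its 3′ end and is not divided by length.

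Within the replacement class, 3 genes stood far above the rest. H2afz, which encodes the H2A variant H2A.Z found around promoters (chr3:137864487-137866922, plus strand), was at 3221 CPM in the oil-labelled library and 2662 in the tamoxifen-labelled library. H3f3a (chr1:180800832-180813943, minus strand) was at 2588 and 2361 CPM and H3f3b (chr11:116021912-116027962, minus strand) at 2258 and 1931 CPM. These genes encode the same replacement H3 protein. H2afj, an H2A variant (chr6:136808244-136810074, plus strand), was at 268 and 338 CPM, and H2afv, the other H2A.Z gene (chr11:6427229-6444443, minus strand), at 226 and 208 CPM. H2afy, which encodes macroH2A (chr13:56073619-56136361, minus strand), was at 199 and 169 CPM. H2afx, whose protein is phosphorylated around DNA breaks (chr9:44334694-44336077, plus strand), was at 191 and 137 CPM. The linker histone gene H1f0, known to be high in cells that have left the cycle (chr15:79028450-79030504, plus strand), was at 135 and 98.6 CPM. H3f3aos, an antisense RNA that the rule takes in by its symbol (chr1:180813776-180816859, plus strand), had 76 and 83 UMIs. It encodes no histone, and leaving it out changed no sum of the class beyond counting error. Medians over the few members have no counting interval, and some of those between cell cycle phases moved.

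Replication-dependent UMIs were concentrated in few genes. The 3 members with the most UMIs in the oil-labelled library held 37.7% of the class UMIs of both libraries together and the first 10 held 73.9%, and 37 members stayed under 10 CPM in both libraries. The linker histone gene Hist1h1b (chr13:21779883-21780625, minus strand) led at 295 and 226 CPM, followed by Hist1h2ap, an H2A gene (chr13:21833026-21833507, minus strand), at 187 and 94.8 CPM. The linker histone genes Hist1h1e (chr13:23620629-23622558, minus strand) and Hist1h1c (chr13:23738808-23740367, plus strand) were at 170 and 138 CPM and at 167 and 136 CPM. Hist1h2ae, an H2A gene (chr13:23570517-23571220, minus strand), was at 115 and 87.2 CPM, and Hist1h2bc, an H2B gene (chr13:23684199-23692908, plus strand), at 94.0 and 76.9 CPM. Hist1h2ap was thus second in the oil-labelled library and below both Hist1h1e and Hist1h1c in the tamoxifen-labelled one, and the intervals of Hist1h1e and Hist1h1c overlapped in both. Further down came the H4 genes Hist1h4d (chr13:23581598-23582735, plus strand) at 55.1 and 77.5 CPM and Hist1h4i (chr13:22040636-22041362, minus strand) at 45.0 and 39.6 CPM. The H2A genes Hist1h2ac (chr13:23681467-23683948, minus strand) and Hist2h2ac (chr3:96220361-96220880, minus strand) were at 58.6 and 27.8 CPM and at 44.9 and 42.5 CPM. Counts of close copies are uncertain. Most of the 90-base windows, over 50% of them, in the last 400 bases are shared with another gene in 24 members, including all of those of Hist1h2ap and Hist1h1e, and none are shared in 18. Hist1h1e also overlaps Hist1h2be on the same strand.

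**Figure D1:**
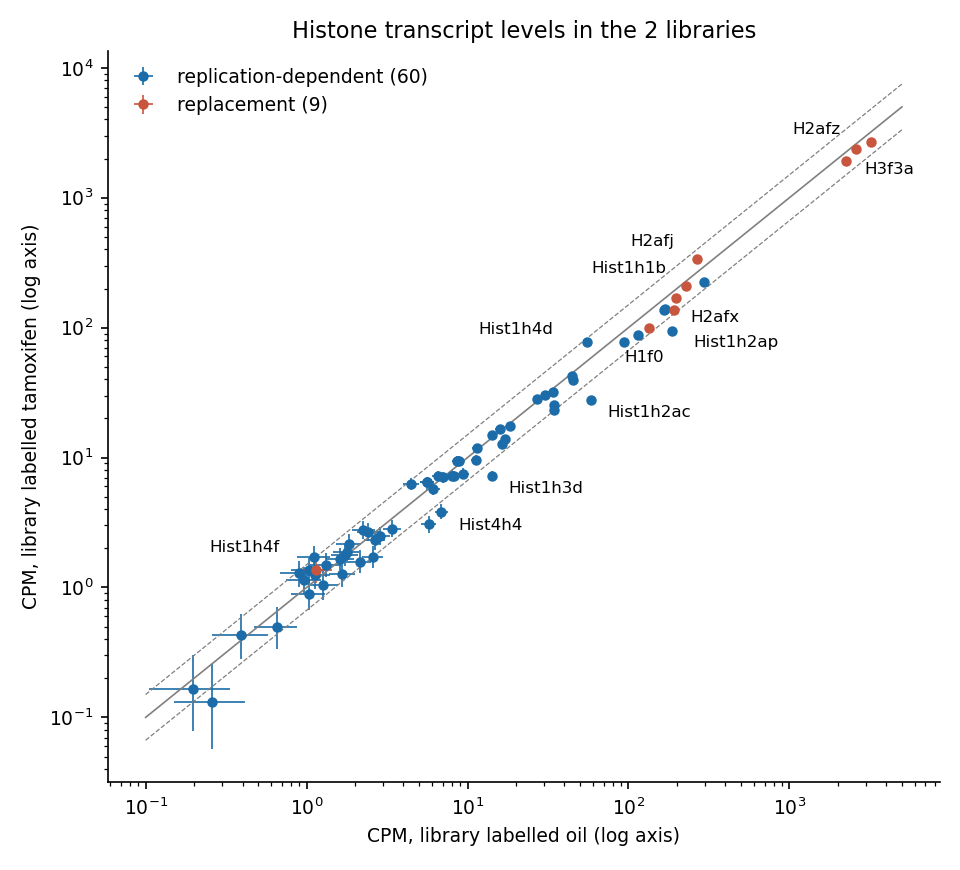
CPM of the 60 replication-dependent and 9 replacement members in the oil-labelled library (x axis) and the tamoxifen-labelled library (y axis), both on log axes, with exact Poisson 95% intervals, a solid line at equal CPM and dashed lines at a 1.5-fold difference. H2afz, H3f3a and H3f3b stand above all other members at 1931 to 3221 CPM, and Hist1h2ac and Hist1h2ap lie below the dashed band.

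The cells were next placed in the cell cycle, to ask when each class is expressed. S and G2M scores were computed with Seurat from 43 S genes and 54 G2M genes, none of them a member, after each cell had been thinned to 3000 UMIs. This left 6330 and 6127 cells, with 508 and 345 shallower cells left out. A cell with neither score above 0 was called G1, which here includes cells outside the cycle, and other cells took the phase of the higher score. Cells called G1 made up 45.4% (44.2 to 46.6) of the oil-labelled library and 59.5% (58.3 to 60.7) of the tamoxifen-labelled library. The share of S cells was 28.4% (27.3 to 29.6) against 20.4% (19.4 to 21.4), and that of G2M cells was 26.2% (25.1 to 27.3) against 20.1% (19.1 to 21.2). A score lay within 0.05 of a cut in 825 cells (13.03%) and 861 cells (14.1%). Cycling cells were also larger in content, with means of 6600 and 7191 UMIs per G1 cell, 12596 and 13215 per S cell and 14153 and 13962 per G2M cell. For a finer order, cycling cells were divided by whether 1 score or both were above 0 and which led, giving 5 states from G1 through S only, S leading and G2M leading to G2M only. Among genes that check the states, Tk1, Mcm7 and Ccne1 peaked in S leading cells, Ccnf in G2M leading cells and Ccnb1 and Plk1 in G2M only cells of both libraries. Mcm3 peaked in S only and S leading cells of the oil-labelled and tamoxifen-labelled library in turn, and Ccna2 and Bub1b in G2M only and G2M leading cells. The calls are ranges of a score, not sorted phases.

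Replication-dependent transcripts were not highest where the S score stood alone. In the oil-labelled library their sum was 718 CPM in G1 cells, 788 in S only, 2295 in S leading, 2873 in G2M leading and 2042 in G2M only cells. In the tamoxifen-labelled library the same states gave 561, 659, 2479, 2950 and 1793 CPM. The sum thus differed little between G1 and S only cells and was highest where both scores were positive. That small difference joins groups of members that moved apart. The short-tail sum was at 39.3 CPM in G1 and 160 in S only cells of the oil-labelled library and at 38.2 and 133 CPM in the tamoxifen-labelled one, whereas the long-tail sum was at 492 and 359 CPM and at 378 and 303 CPM. Hist1h1b was at 12.6 CPM in G1, 147 in S only and 592 in S leading cells of the oil-labelled library and at 13.3, 125 and 638 CPM in the tamoxifen-labelled one. Hist1h1c was lowest in S only cells, at 70.7 and 52.4 CPM, and Hist1h2bc in S leading cells, at 49.8 and 31.9 CPM. Among single members, 44 of 60 in the oil-labelled library and 47 of 60 in the tamoxifen-labelled library were highest in G2M leading cells, none in S only cells, and 47 had the same highest state in both. The highest state was not computed over all genes, so these counts have no background share. Some rest on few UMIs, such as Hist1h2ao with 8 in G2M leading cells of the oil-labelled library. The linker histone gene Hist1h1a and the H3 gene Hist1h3a were highest in S leading cells in both libraries; these genes were chosen after their values had been seen.

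Replacement transcripts varied less. Their sum in the oil-labelled library was 7546 CPM in G1, 8200 in S only, 9593 in S leading, 10802 in G2M leading and 10422 in G2M only cells. In the tamoxifen-labelled library it was 6510, 7380, 8950, 10277 and 9692 CPM. The replication-dependent share of histone UMIs followed the cycle accordingly. It was 8.69%, 8.76%, 19.3%, 21.01% and 16.4% over the states in the oil-labelled library and 7.93%, 8.20%, 21.7%, 22.3% and 15.6% in the tamoxifen-labelled library.

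**Figure D2:**
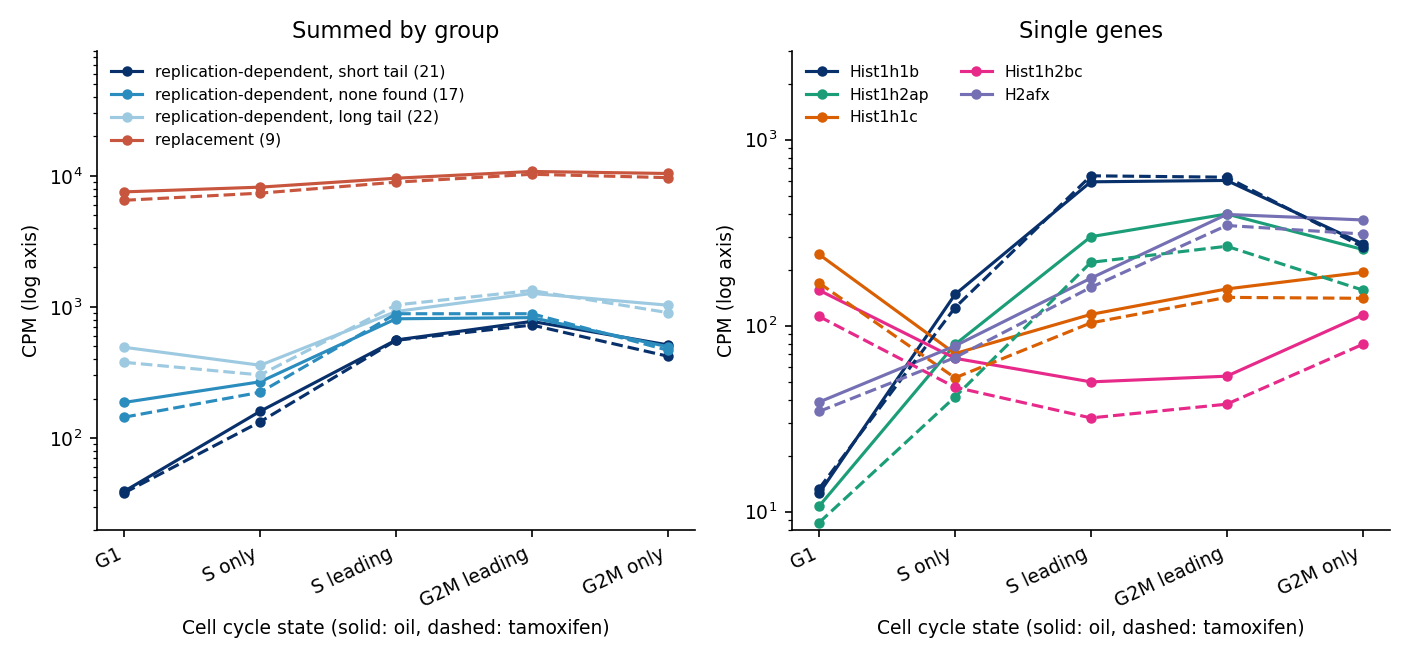
CPM on a log axis over the 5 cell cycle states, for members summed by group (left) and for single genes (right), with solid lines for the oil-labelled and dashed lines for the tamoxifen-labelled library. The short-tail sum climbs from 39.3 and 38.2 CPM in G1 to 776 and 728 CPM in G2M leading cells, the replacement sum is the flattest, and Hist1h1c and Hist1h2bc start high in G1.

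By the 3 phases, the summed replication-dependent level was higher in S than in G1 by 0.998 on the log2 scale (0.97 to 1.03) in the oil-labelled library and by 1.20 (1.17 to 1.23) in the tamoxifen-labelled library. It was higher in G2M than in G1 by 1.84 and 2.14. The replacement sum was higher in S than in G1 by 0.22 and 0.28 and in G2M by 0.50 and 0.62. Per cell and at the common depth of 3000 UMIs, the mean number of replication-dependent UMIs was 2.40 in G1, 3.93 in S and 7.35 in G2M cells of the oil-labelled library. It was 1.89, 3.44 and 6.96 in the tamoxifen-labelled library. Cells with no replication-dependent UMI at this depth were as frequent in S as in G1, at 24.4% and 24.2% in the oil-labelled library and 29.4% and 29.3% in the tamoxifen-labelled library, and were 11.5% and 11.4% of G2M cells. Replacement UMIs numbered 22.6, 26.4 and 32.2 per cell in the oil-labelled library and 19.6, 23.6 and 30.2 in the tamoxifen-labelled library, and no cell was without one.

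Most single members followed the class. In the oil-labelled library, 45 of 60 replication-dependent members were at least 1.5-fold higher in S than in G1, against 16% of the genes with at least 20 UMIs. In the tamoxifen-labelled library the count was 48 of 60, against 15.8%. In G2M over G1 it was 53 and 54 of 60, against 15.1% and 14.7%. The median member was higher in S than in G1 by 1.65 and 1.92, while the median of all genes was -0.20 and -0.18. G2M exceeded S in 59 and 58 of 60 members, against 49.2% and 48.2% of genes. Hist1h1b went furthest among the abundant members, from 12.6 CPM in G1 to 338 in S and 485 in G2M cells of the oil-labelled library, and from 13.3 to 302 and 479 CPM in the tamoxifen-labelled library. Hist1h2ae went from 10.2 to 108 and 209 CPM and from 10.2 to 92.5 CPM in S cells, with G2M again the highest. Hist2h2ac went from 6.01 to 42.6 and 78.7 CPM and from 5.87 to 47.2 and 94.4 CPM. These members are close to silent in G1 relative to their S and G2M levels.

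A few replication-dependent members went the other way. The interval of S over G1 lay below 0 in 7 members in the oil-labelled library and 6 in the tamoxifen-labelled library, against 42% and 39.7% of all genes. In both libraries it did so for Hist1h1c, Hist1h2bc, Hist1h2ac, Hist3h2a and Hist3h2ba. Hist1h1c was at 241 CPM in G1, 89.7 in S and 170 in G2M cells of the oil-labelled library, and at 169, 70.0 and 141 CPM in the tamoxifen-labelled library, so that S lay below G1 by -1.43 and -1.27 on the log2 scale. In G1 cells Hist1h1c was the highest replication-dependent member in both libraries, while Hist1h1b led in S and G2M cells. Hist1h2bc was at 155, 59.5 and 75.3 CPM and at 112, 41.5 and 54.8 CPM, with S over G1 of -1.38 and -1.43. Hist1h2ac was at 52.9, 31.9 and 87.8 CPM and at 26.2, 16.9 and 39.2 CPM. Its lowest phase was thus S and its highest G2M. Hist3h2a, an H2A gene of the chromosome 11 pair, was at 29.1, 7.10 and 19.8 CPM and at 25.6, 7.88 and 12.9 CPM. Of these 5 genes, 4 are long-tail members, and no stem-loop was found in the annotated Hist1h2bc transcripts. The pattern of Hist1h1c and Hist1h2bc resembled that of the replacement linker histone H1f0, which was at 149, 95.6 and 159 CPM and at 98.7, 68.9 and 126 CPM in the same phases, in that S was the lowest phase.

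Grouped by their 3′ ends, the short-tail sum differed most between phases. Their sum was 39.3 CPM in G1, 332 in S and 681 in G2M cells of the oil-labelled library and 38.2, 279 and 602 CPM in the tamoxifen-labelled library, which puts S above G1 by 3.08 and 2.87 on the log2 scale. Long-tail members summed to 492, 601 and 1183 CPM and to 378, 556 and 1159 CPM, with S above G1 by only 0.29 and 0.56. Members without a stem-loop match summed to 187, 502 and 709 CPM and to 144, 453 and 715 CPM, with S above G1 by 1.42 and 1.65. Long-tail members thus supplied most of the replication-dependent UMIs of G1 cells. At least 1.5-fold higher in S than in G1 were 12 and 14 of 22 long-tail members and 19 and 19 of 21 short-tail members, and 14 and 15 of 17 members without a match. The share over all genes was 16% and 15.8%, so all 3 groups lay above it. The median S over G1 was 0.89 and 1.22 for long-tail, 2.06 and 2.84 for short-tail and 2.29 and 2.56 for the other members, so the last group exceeded the short-tail one in the oil-labelled library. The median G2M over G1 was 1.60 and 2.28, 3.03 and 3.51, and 3.42 and 3.63 in the same order. Hist1h1c alone supplied 241 of the 492 CPM of the long-tail sum in G1 cells of the oil-labelled library and 169 of the 378 CPM in those of the tamoxifen-labelled one. The short-tail sum rested largely on Hist1h2ap. Without that gene it was 28.6, 157 and 334 CPM in G1, S and G2M cells of the oil-labelled library. In the tamoxifen-labelled library it was then 29.5, 177 and 381 CPM.

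**Figure D3:**
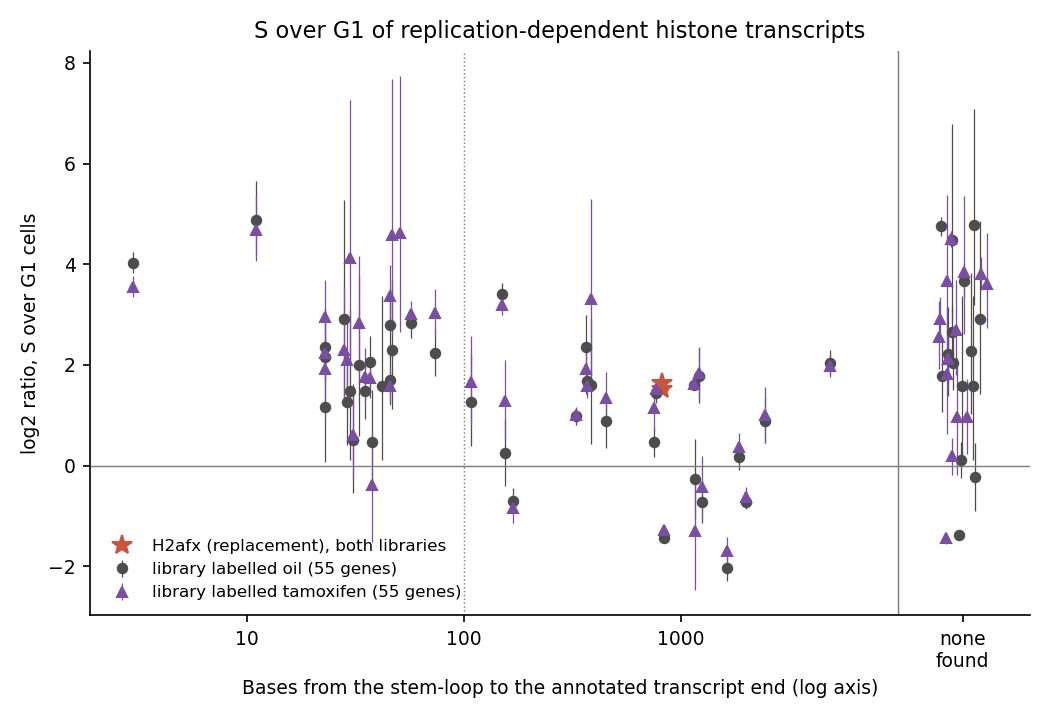
log2 ratio of S over G1 against the annotated bases past the stem-loop (log axis) for each replication-dependent member with at least 20 UMIs in S and G1 cells together, 55 in each library, with exact conditional binomial 95% intervals, the dotted line at 100 bases, members without a match at the right and H2afx as stars. The members below 0 in both libraries, such as Hist1h1c at -1.43 and -1.27, have a long tail or no match.

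Replacement members had several patterns. H2afx was the most cycle dependent, at 38.8 CPM in G1, 122 in S and 386 in G2M cells of the oil-labelled library and at 34.6, 99.6 and 331 CPM in the tamoxifen-labelled library. It is also the only replacement member with a stem-loop. H2afz was at 1988, 3525 and 3977 CPM and at 1732, 3102 and 3694 CPM, so S lay above G1 by 0.83 and 0.84 on the log2 scale. H3f3b was level between G1 and S at 1853 and 1881 CPM and higher in G2M at 2948 CPM, with 1567, 1632 and 2753 CPM in the tamoxifen-labelled library. H3f3a, which encodes the same protein, was highest in G1 at 2936 CPM and at 2446 and 2439 CPM in S and G2M, with 2460, 2250 and 2316 CPM in the tamoxifen-labelled library. H3f3a thus exceeded H3f3b in G1 and S cells, and H3f3b exceeded H3f3a in G2M cells, in both libraries. Over the class, 2 of 9 members in each library were at least 1.5-fold higher in S than in G1, against 16% and 15.8% of genes. That count is near the background share. In G2M over G1 it was 4 of 9 in each library, against 15.1% and 14.7% of genes.

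The libraries were then compared over all kept cells. The replication-dependent sum was 1639 CPM (1629 to 1648) in the oil-labelled library and 1313 (1304 to 1322) in the tamoxifen-labelled library, a log2 ratio of -0.32 (-0.33 to -0.31). The replacement sum was 9087 and 7904 CPM, a log2 ratio of -0.20 (-0.21 to -0.20). The median member had a ratio of -0.12 in the replication-dependent and -0.23 in the replacement class, and the median over all genes with at least 20 UMIs was -0.05. At least 1.5-fold lower in the tamoxifen-labelled library were 6 of 60 replication-dependent members, against 3.1% of those genes. Among the 6 is Hist1h2ao, with only 25 UMIs over both matrices and an interval that spans 0. At least 1.5-fold higher was 1 member, Hist1h4f, against 4.82%. No replacement member passed that fold in either direction. The interval lay below 0 in 21 of 60 replication-dependent members and above 0 in 5, against 34.9% and 17.8% of genes, so the first share is that of the background. It lay below 0 in 7 of 9 replacement members and above 0 in 1, H2afj. Without Hist1h2ap the replication-dependent ratio was -0.25 (-0.27 to -0.24).

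**Figure D4:**
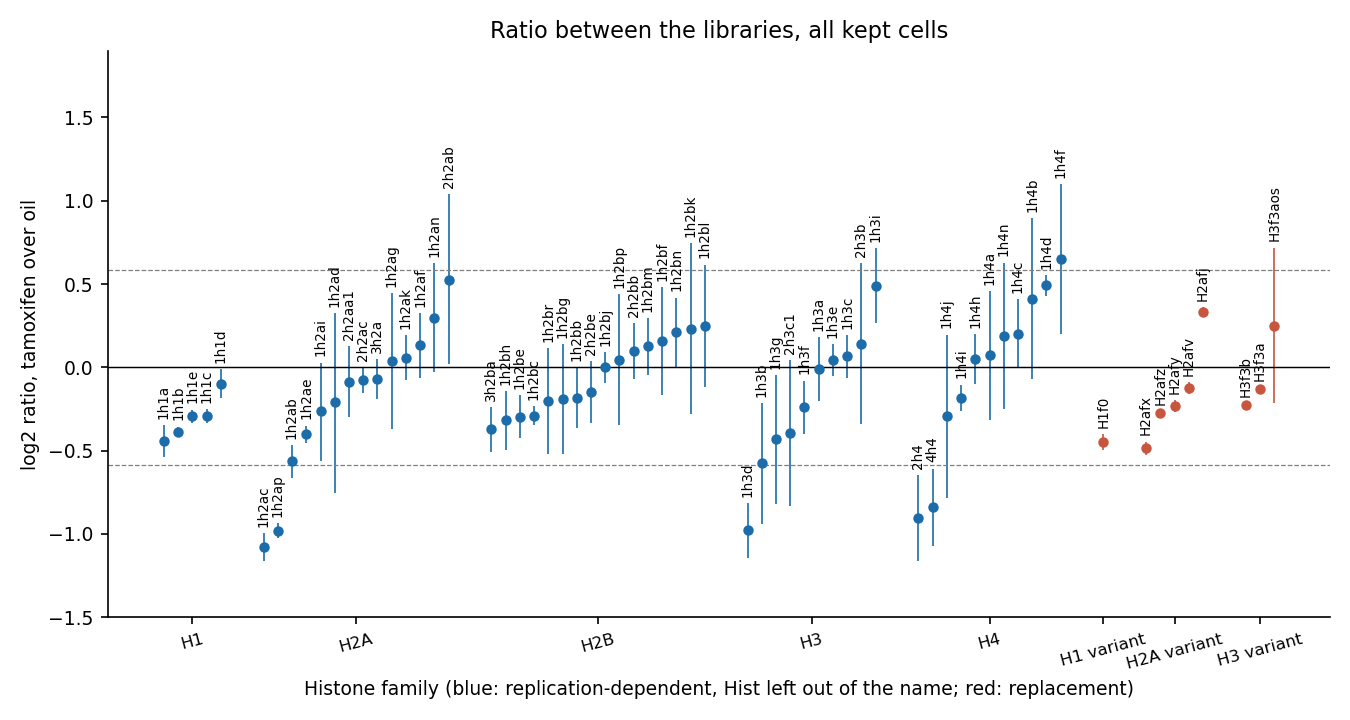
log2 ratio of CPM, tamoxifen-labelled over oil-labelled library, over all kept cells, by family, for the 56 replication-dependent (blue, with Hist left out of the name) and 9 replacement members (red) with at least 100 UMIs, with exact conditional binomial 95% intervals and dashed lines at a 1.5-fold difference. Hist1h2ac and Hist1h2ap are lowest at -1.08 and -0.98, and Hist1h4d and H2afj lie above 0 at 0.49 and 0.33.

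The difference in phase makeup moves with these ratios, since G1 cells were more frequent in the tamoxifen-labelled library. Within G1 cells the replication-dependent sum had a log2 ratio of -0.36 (-0.39 to -0.32), within S cells -0.15 (-0.18 to -0.13) and within G2M cells -0.06 (-0.07 to -0.04). The replacement sum had ratios of -0.21, -0.15 and -0.09. When both libraries were given the same phase makeup, each phase weighted by its mean share over the libraries, the replication-dependent sum was 1562 and 1395 CPM, a ratio of -0.16 (-0.18 to -0.15), close to that of the replacement sum at -0.15 (-0.16 to -0.15). The ratio within G2M cells is smaller than the effect of scaling. With totals that leave out mitochondrial and ribosomal protein genes, ratios were higher by 0.11 in G1, 0.07 in S and 0.07 in G2M cells, and the replication-dependent ratio in G2M cells became 0.01. Since the shift is upward, single-gene ratios below 0 by less than it turn positive with that scaling.

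Family sums differed in direction over all cells, and the direction of the H4 sum over all cells rested on 1 gene. Over all cells, H1 genes summed to 700.1 and 557 CPM (log2 ratio -0.33), H2A genes to 495 and 330 CPM (-0.58), H2B genes to 219 and 194 CPM (-0.18), H3 genes to 88.0 and 80.9 CPM (-0.12) and H4 genes to 137 and 150 CPM (0.14). At equal phase makeup the ratios were -0.17, -0.38, -0.15, 0.09 and 0.30. Within G1, S and G2M cells in turn, H2A genes were at -0.47, -0.36 and -0.30 and H4 genes at 0.07, 0.30 and 0.42. Without Hist1h2ap and Hist1h2ac, the H2A ratios were -0.09, -0.05 and 0.03, and -0.26 (-0.30 to -0.23) over all cells. The H4 ratios were -0.22, -0.01 and 0.09 (0.01 to 0.17) without Hist1h4d, and the H4 ratio over all cells was then -0.17 (-0.23 to -0.11). The median of all 12 H4 members was 0.06 over all cells and 0.05, 0.30 and 0.15 within G1, S and G2M cells. H1 genes were at -0.39, -0.17 and -0.05, and without Hist1h1c at -0.07, -0.14 and -0.01, with -0.34 over all cells. H2B genes were at -0.40, -0.08 and 0.02, and without Hist1h2bc at -0.22, 0.14 and 0.16, with -0.10 over all cells. H3 genes were at -0.19, 0.09 and 0.19. These left-out genes were chosen after their values had been seen. With totals that leave out mitochondrial and ribosomal protein genes, the H1 ratio in G2M cells changed sign, to 0.02, and no other family sum did within a phase.

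**Figure D5:**
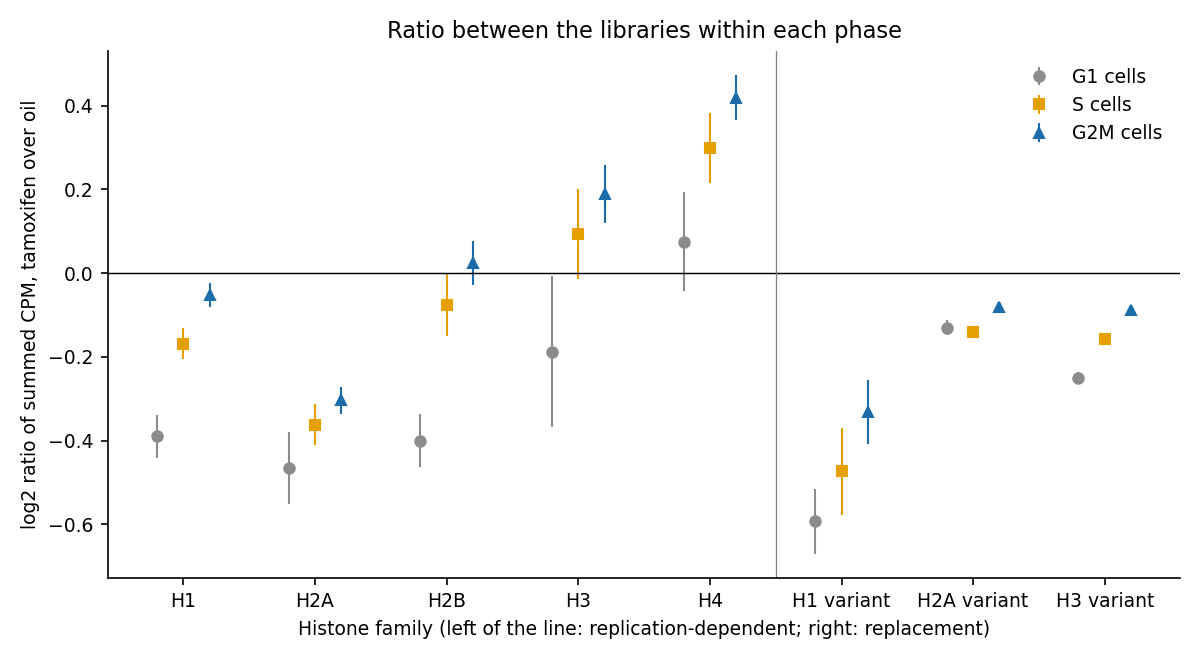
log2 ratio of summed CPM, tamoxifen-labelled over oil-labelled library, within G1 (circles), S (squares) and G2M cells (triangles) for each histone family, replication-dependent left and replacement right of the line, with exact conditional binomial 95% intervals. The H4 sum lies highest, at 0.07, 0.30 and 0.42, and the H2A sum lies below 0 throughout, at -0.47, -0.36 and -0.30.

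Few single members had intervals on the same side of 0 in all 3 phases. The interval lay below 0 in G1, S and G2M cells alike in 8 of 60 replication-dependent members (13.3%). That share is near the 11.9% of all genes. These were Hist1h1c, Hist1h2ap, Hist1h2bc, Hist1h2ac, Hist3h2ba, Hist1h3d, Hist4h4 and Hist2h4. Hist1h2ac counted 3873 UMIs in the oil-labelled library and 1684 in the tamoxifen-labelled library, a log2 ratio of -1.08 (-1.16 to -0.996), with -1.01, -0.92 and -1.16 within G1, S and G2M cells. Hist1h2ap counted 12351 and 5750 UMIs, for a ratio of -0.98 (-1.03 to -0.94), with -0.29, -0.76 and -0.65 within phases. Its S level went from 174 CPM in the oil-labelled library to 103 CPM in the tamoxifen-labelled library. Hist1h3d, an H3 gene (chr13:23575763-23577011, plus strand), counted 938 and 437 UMIs, for a ratio of -0.98 (-1.15 to -0.81), with -1.45, -0.78 and -0.60 within phases. The H4 genes Hist4h4 and Hist2h4, outside the rule for named genes and chosen after their values had been seen, were at 6.87 and 3.84 CPM and at 5.74 and 3.07 CPM, and their ratios within phases ran from -0.64 to -1.13.

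Hist1h2ac and Hist1h2bc, which are transcribed away from each other from starts 250 bases apart, were both lower in the tamoxifen-labelled library in every phase, Hist1h2bc by -0.47, -0.52 and -0.46 on the log2 scale. Hist1h1c, in the same chromosome 13 group, was at -0.51, -0.36 and -0.27. The abundant gene Hist1h1b differed from these. Its ratio over all cells was -0.39 (-0.42 to -0.36), but within G1, S and G2M cells it was 0.08, -0.16 and -0.02. Hist1h2ae was at -0.40 over all cells and at -0.005, -0.22 and -0.06 within phases, and Hist1h1e at -0.29 and at -0.10, -0.09 and -0.06. For these 3 genes the ratio over all cells was further from 0 than that within any phase.

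Hist1h4d was the only 1 of 60 replication-dependent members (1.67%) with the interval above 0 in all 3 phases, against 3.23% of genes. It counted 3640 and 4703 UMIs, for a log2 ratio of 0.49 (0.43 to 0.56), and stood at 13.7 and 21.8 CPM in G1, 37.2 and 62.9 CPM in S and 106 and 176 CPM in G2M cells, with ratios of 0.67, 0.76 and 0.74. The interval lay above 0 in both S and G2M cells in 12 of 60 members (20%), against 4.35% of genes. It lay below 0 in both in 10 of 60 (16.7%), near the 15.1% of genes. Hist2h2ac belonged to the 12, with ratios of 0.15 in S and 0.26 in G2M cells against -0.08 (-0.15 to -0.0009) over all cells, where that scaling gave 0.0024. Hist1h4f (chr13:23551258-23551648, minus strand) had the highest ratio over all cells, 0.65 (0.20 to 1.10), on 73 and 105 UMIs, and was at -0.10 in the cells of a stricter filter. Hist2h2ab, an H2A gene (chr3:96219865-96220308, plus strand), followed at 0.53 (0.02 to 1.04) on 59 and 78 UMIs. Within S cells the interval lay above 0 in 12 replication-dependent members and below 0 in 13, against 7.24% and 21.6% of genes. Within G2M cells it did so in 21 and 11 members, against 8.63% and 24%, and within G1 cells in 1 and 12 of 59 members with UMIs, against 8.04% and 28.6%. The median member was at -0.09 in G1, 0.14 in S and 0.15 in G2M cells, and the median gene at -0.09, -0.07 and -0.07. The sums therefore had another sign than the median members in S and G2M cells, where the abundant Hist1h2ap, Hist1h1c and Hist1h2bc lie below 0.

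Median ratios differed between the gene groups along the genome. The 20 members at chr13:21715763-22043676 had a median ratio of 0.02 over all cells, 0.30 in S and 0.24 in G2M cells, where the interval lay above 0 in 8 of them and below 0 in 1. The 28 members at chr13:23531050-23764406 had medians of -0.20, 0.00056 and 0.12, and in G2M cells the interval lay above 0 in 10 of them and below 0 in 6. The 9 members at chr3:96219865-96270132 had a median of -0.08 over all cells and of 0.15 and 0.26 in S and G2M cells, with 3 above 0 and 1 below in G2M cells. Over all genes the interval in G2M cells lay above 0 in 8.63% and below 0 in 24%. The 6 of 28 members below 0 are thus near the background share. Each group holds members on both sides of 0. Hist4h4 and H2afj, 3828 bases apart on chromosome 6 and transcribed away from each other, had ratios of opposite sign, -0.84 and 0.33.

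Among replacement members the interval lay below 0 in all 3 phases in 6 of 9 (66.7%), against 11.9% of all genes. These were H2afz, H3f3a, H3f3b, H2afy, H2afx and H1f0. Counting intervals are narrow for members with many UMIs, and the median gene in G2M cells was itself at -0.07. Within each phase H1f0 lay furthest below 0, from 149 to 98.7 CPM in G1, 95.6 to 68.9 in S and 159 to 126 in G2M cells, ratios of -0.59, -0.47 and -0.33, with -0.45 (-0.50 to -0.40) over all cells. H2afx had a ratio of -0.49 (-0.53 to -0.45) over all cells and of -0.17, -0.29 and -0.22 within phases. H2afz was at -0.28 over all cells and at -0.20, -0.18 and -0.11 within phases, H3f3b at -0.23 and at -0.24, -0.21 and -0.10, and H3f3a at -0.13 and at -0.26, -0.12 and -0.07. H2afy was at -0.23 and at -0.13, -0.19 and -0.26. H2afj was the exception with the interval above 0 in every phase, at 0.33 (0.30 to 0.36) over all cells and at 0.37, 0.40 and 0.33 within phases. H2afv lay at -0.15, -0.17 and 0.11 within phases, so its sign in G2M cells was the opposite of that in G1 and S cells. H3f3aos had an interval that spans 0.

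Genes that process histone mRNA or carry histones to chromatin were set beside the members. Of 12 detected genes of histone mRNA processing, 8 had an interval below 0 and 0 above, with a median ratio of -0.20, against 34.9% and 17.8% of all genes and their median of -0.05. Slbp was at 147 and 120 CPM, a ratio of -0.29 over all cells, with -0.16 in S and -0.07 in G2M cells. It was higher in S than in G1 by 1.95 and 1.82 on the log2 scale, but it is itself a gene of the S list. Of 25 histone chaperones and exchange factors, 17 had an interval below 0 and 5 above, against the same shares, with a median of -0.14. The lowest were Asf1b, a chaperone of H3 and H4, at 68.3 and 51.5 CPM (-0.41), Chaf1a, the large subunit of chromatin assembly factor 1, at 42.9 and 32.9 CPM (-0.38), and Hat1, which acetylates new H4, at 108 and 82.9 CPM (-0.38). Within G1, S and G2M cells these ratios were mostly nearer to 0, at -0.14, -0.17 and -0.08 for Asf1b, -0.23, -0.09 and -0.25 for Chaf1a and -0.03, -0.27 and -0.26 for Hat1. The highest were Daxx, a chaperone of replacement H3, at 20.5 and 25.1 CPM (0.29), Srcap, which exchanges H2A.Z into chromatin, at 14.3 and 16.4 CPM (0.20), and Ubn2, of the Hira complex, at 107 and 114 CPM (0.09). Daxx was at 0.30, 0.17 and 0.31 within the phases and Srcap at 0.09, 0.29 and 0.18, whereas Ubn2 was at -0.07, -0.03 and 0.01. No gene of either list reached 1.5-fold between the libraries.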

How the data were processed

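Single-cell RNA was measured with the 10x Chromium V3 kit in 1 library per group. The authors mapped reads to mm10 with Cell Ranger 3.0.2 and deposited UMI counts per gene and cell, without normalization; Seurat was named for their analysis of cells. Members and gene lists were chosen with earlier results of these data known. Cells were kept from 500 genes upward and up to 10% mitochondrial UMIs. Scrublet (scanpy 1.11.5) called 5 and 0 doublets (0.0731% and 0% of cells) and so had not worked, and no doublets were removed. Counts were summed over cells and divided by the total (pandas 2.3.3 and scipy 1.17.1 in Python 3.11.15, with numpy 2.4.6). CPM have exact Poisson, log2 ratios exact conditional binomial and shares Clopper-Pearson intervals at 95%. Intervals at equal phase makeup use a normal approximation. UMIs of 1 library are not replicates, so no test was run. Cell cycle scores came from Seurat 5.3.0 in R 4.3.3 on cells thinned to 3000 UMIs. The S list holds Slbp, Nasp, Casp8ap2 and Chaf1b, and the G2M list Anp32e, Hjurp and Cenpa, of the histone supply lists. Scripts were tested on simulated data.

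Named genes were every replacement member, the 10 replication-dependent members with the most UMIs, the 3 highest and 3 lowest ratios among those with at least 100 UMIs, Slbp, and the 3 highest and 3 lowest ratios of the supply lists. The background was the 12275 genes with at least 20 UMIs. Positions and transcripts came from GENCODE M21 (GRCm38), in which 30934 of 31053 genes were found, and promoters from RefSeq GRCm38.p6. Alternatives covered the cell filter, doublets, scaling (edgeR 4.0.16 TMM and DESeq2 1.42.0 median ratio), weight of cells, the UMI minimum, the fold, thinning, the S list and single members. Figures were drawn with matplotlib 3.10.9.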

Additional observations from a re-analysis of the deposited data

How the results depend on the processing

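No paired analysis was possible because there is 1 library a group. Of 103 values of the main results under alternatives, 73 moved by less than their counting interval, 30 moved further and 0 changed sign. The log2 ratios of the replication-dependent sum, the replacement sum and the replacement median were -0.28, -0.16 and -0.18 under TMM, -0.27, -0.15 and -0.17 under median ratio, and -0.24, -0.12 and -0.15 with totals without mitochondrial and ribosomal protein genes, where Hist2h2ac changed sign to 0.0024. A filter at 1000 genes and 5% mitochondrial UMIs left 673 and 771 cells, and there they were -0.39, -0.25 and -0.26. In those cells 15 replication-dependent members were at least 1.5-fold lower, but no share of all genes is given for those cells. The replication-dependent ratio at equal phase makeup was there -0.11, replacement S over G1 was 0.36 and 0.33, and Hist1h4f changed sign to -0.10. With every cell given the same weight the sums were at -0.36 and -0.21, replication-dependent S over G1 was 0.70 and 0.90, and replacement S over G1 in the tamoxifen-labelled library was 0.27. At a fold of 2, 1 replication-dependent member was lower, but no share of all genes is given at that fold. Without H2afx the replacement sum was at -0.20, its median at -0.18 and its S over G1 at 0.21 and 0.27. Replication-dependent S over G1 was 0.96 and 1.17 without thinning, and 1.04 in the oil-labelled library with Slbp, Nasp, Casp8ap2 and Chaf1b left out of the S list. Without Hist1h2ap, chosen after seeing the data as were the settings without H3f3aos, without shared barcodes and with single members left out, the replication-dependent sum was at -0.25. What causes the shifts was not tested. Of the named genes' values, 157 moved by less than their interval, 73 moved further and 2 changed sign, as given above.

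With 1 library per group, differences between mice, sorts and captures cannot be told apart from the injection. Priming on poly(A) limits replication-dependent counts, and rare members, such as Hist1h4f on 73 and 105 UMIs, have wide intervals. Close copies limit which member a UMI can be given to. Both libraries hold the same sorted population, so free RNA was not measured against another cell type.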

Other observations

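Histone transcripts were also counted in the 936 and 839 barcodes that the cell filter left out. In these the replication-dependent sum was 1313 CPM in the oil-labelled library and 964 in the tamoxifen-labelled library, a log2 ratio of -0.45 (-0.50 to -0.39), on 5507 and 4210 UMIs. The replacement sum was 7545 and 6615 CPM, a ratio of -0.19 (-0.21 to -0.17). Both directions were those of the kept cells.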
